A study of Mus musculus with 11 samples.

Results

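The nuclear genes of the mitochondrial respiratory chain were followed through the loss of 3 histone demethylases in mouse leukaemic cells. The genes were chosen by name, as probes whose RefSeq accession leads to a symbol starting with Nduf, Uqcr, Cox4, Cox5, Cox6, Cox7, Cox8 or Atp5, or with Sdh followed by a, b, c or d. The rule found 97 genes on the array, measured by 128 of 55681 probes. Of these, 94 genes passed the filter on dim probes (signal well above background in 3 or more of the 11 hybridisations) and were tested among 25079 genes or features. The remaining 3 (Cox7b2, Cox8b and Cox8c, complex IV isoforms known from testis or muscle) were not kept: signal well above background was seen for Cox7b2 and Cox8b in 0 of 11 arrays and for Cox8c in 1. By complex, the 94 genes comprise 38 subunits and 8 assembly factors of complex I, 4 subunits and 4 assembly factors of complex II, 8 genes of complex III, 15 of complex IV and 17 of complex V. The marker genes Ndufs1 and Sdha were well above background on all arrays.

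The cells are granulocyte-macrophage progenitors transformed with the MLL-AF9 fusion (L-GMP), on a C57BL/6 background, and derive from leukaemic mice. Every sample, the controls included, carries the fusion, floxed alleles of Jmjd2a, Jmjd2b and Jmjd2c (now Kdm4a, Kdm4b and Kdm4c, erasers of methyl groups on histone H3) and a tamoxifen-activated Cre, CreERT2, expressed from the broadly active Rosa26 locus. Cells growing in 20% FBS and 10 ng/ml IL-3 were profiled untreated (0 h, 4 arrays) or after 500 nM 4-hydroxytamoxifen for 48 h (4 arrays) and 96 h (3 arrays). No treated cells without floxed alleles were analysed here, so the drug, Cre activity and the loss of the demethylases cannot be told apart. The comparisons ask how respiratory chain transcripts differed between each pair of times.

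The respiratory chain passes electrons from NADH (complex I) and succinate (complex II) through complexes III and IV to oxygen, and ATP synthase (complex V) uses the resulting proton gradient. Catalytic core subunits carry the flavins, iron-sulphur clusters, haems and copper centres, while many small supernumerary subunits stabilise the complexes. Complex IV has subunits with alternative isoforms, some of them typical of heart and skeletal muscle. Mitochondrial DNA encodes a further set of core subunits, which the name rule does not cover.

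Values are Agilent processed signals on a log2 scale after subtracting each array's 75th percentile, called the scaled log2 signal below. A gene was called when limma's test, fitted over all 11 arrays, gave a Benjamini-Hochberg adjusted p under 0.05 over all 25079 features. Probes differ in brightness for reasons other than transcript number, so levels are compared within a gene. Arrays count pooled cells, so fewer cells of a type and less RNA per cell cannot be told apart. The samples are 4 cell lines by the series' design, and no label ties an array to a line. Arrays with the same number in the file name had deviations correlated at 0.12 to 0.36, and other pairs reached 0.167. That number is also the array's column on its slide, so cell line and slide column cannot be told apart. Member calls that differ when that number is fitted as a replicate block are given with the blocked value, and the other gene lists with their blocked counts where these differ.

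The brightest probe of Kdm4b fell to 10.2% of its 0 h signal at 48 h and that of Kdm4c to 3.24%. The Kdm4a probe with clear signal was at 33.1% at 48 h and 43.6% at 96 h; whether these probes lie in the deleted exons was not checked. All 15 progenitor markers were well above background on all arrays. Their summed linear signal ranged from 996 to 1243 at 0 h, from 1388 to 1499 at 48 h and from 1326 to 1393 at 96 h. Both treated ranges lay above that of 0 h. The summed linear signal of 9 mature neutrophil markers (in units of the array's 75th percentile) ranged from 79 to 632 at 0 h, from 171 to 609 at 48 h and from 795 to 1501 at 96 h. The 96 h arrays were hybridised on a slide of their own, and 54.1 to 75.8% of their spots were well above background, against 50.2 to 59.3% on the other arrays. Slide and 96 h therefore cannot be told apart. The 75th percentile signal used for scaling was 149 to 204 at 0 h, 108 to 147 at 48 h and 229 to 294 at 96 h. These ranges did not overlap, so every 48 h array was dimmer by this measure than every 0 h array. Summed erythroid markers ranged from 1.24 to 2.78 at 0 h, from 2.32 to 4.94 at 48 h and from 1.19 to 1.29 at 96 h, the 48 h and 96 h ranges being apart. Over all arrays stromal markers ranged from 0.815 to 2.05, monocyte and macrophage markers from 12 to 28.9 and lymphoid markers from 17 to 36.6. Of these lists 5 of 9 erythroid, 4 of 6 stromal, 5 of 9 monocyte and macrophage and 5 of 8 lymphoid markers passed the filter on dim probes. Their part in the results was not tested.

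After 48 h, 19 respiratory chain genes rose and 2 fell among the 94 tested. The rises were in complexes I, III, IV and V, led by Cox7a1, Uqcrh, Ndufa5 and Atp5k. The falls were Cox6a2, a complex IV isoform of heart and skeletal muscle, and the assembly factor Ndufaf7. The 21 called genes are 22.3% of the members, beside 18.6% of all features. Among all features 10.5% rose and 8.03% fell, against 19 and 2 of the 94 members. The median member differed by 0.17, the median of all features by 0.12. In a blocked fit 20 of these 21 calls remained and the count was 22.

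**Figure D1:**
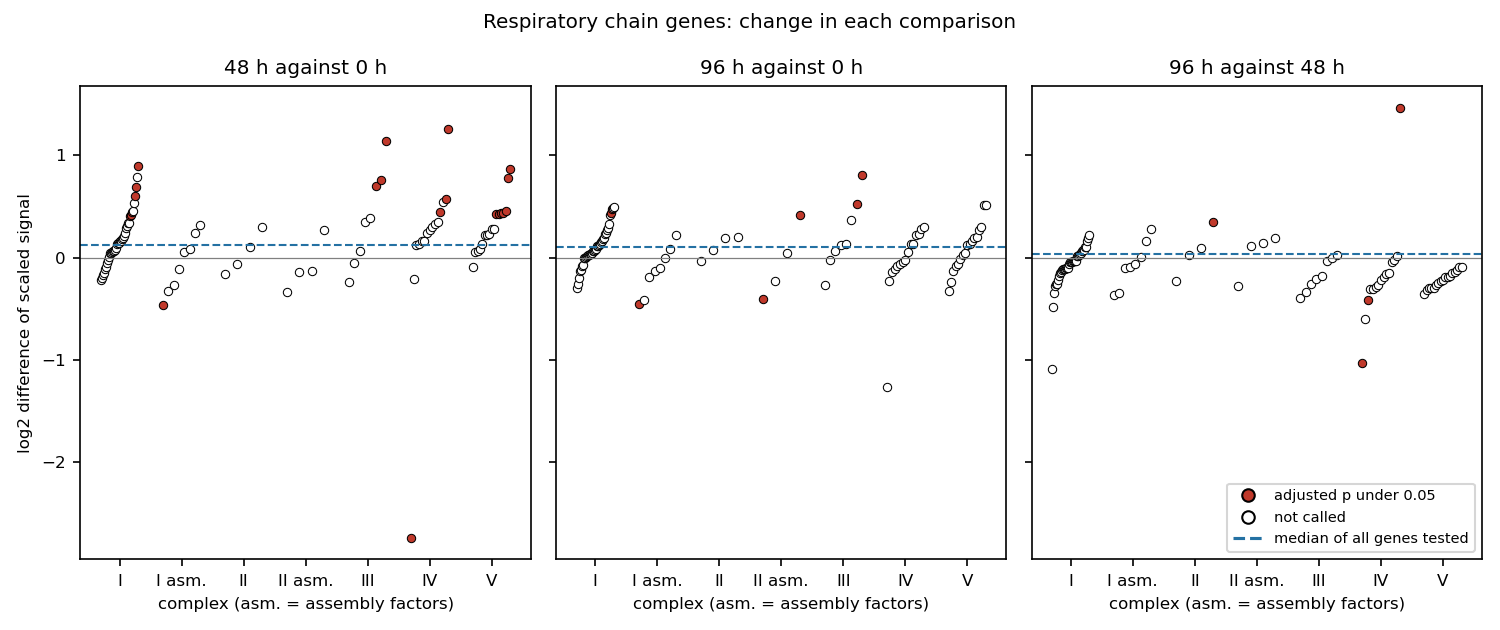
Log2 difference of each of the 94 respiratory chain genes in 3 comparisons, grouped by complex. Filled points passed an adjusted p of 0.05 and the dashed line is the median of all features. At 48 h against 0 h 19 filled points lie above 0 and 2 below, with Cox6a2 lowest at -2.74.

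Within complex I, 6 of 38 subunits rose at 48 h and none fell, 15.8% called beside 18.6% of all features. All 6 are among the 29 supernumerary subunits: Ndufa5, Ndufb7, Ndufb10, Ndufc1, Ndufb3 and Ndufv3, with log2 differences from 0.41 to 0.90. Ndufa5, a small subunit of the matrix arm, read 5.57, 6.28, 5.86 and 5.67 at 0 h and 6.78, 6.81, 6.78 and 6.60 at 48 h. Every 48 h array lay above every 0 h array, a difference of 0.90 ± 0.16 (SE; 1.86-fold, limma adjusted p = 0.00632). Ndufb7, a subunit at the edge of the membrane arm, went from 6.82 ± 0.16 (SD, n = 4) to 7.51 ± 0.07 (SD, n = 4), again without overlap (limma adjusted p = 0.00435). Ndufb10, of the membrane arm, rose by 0.60 (limma adjusted p = 0.0218).

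Of the 7 nuclear core subunits of complex I (Ndufs1 among them), which bind the flavin and iron-sulphur clusters, 0 were called by limma at 48 h and 1 had an unadjusted p under 0.05. Their differences ran from -0.22 to 0.24, with a median of -0.15 beside 0.16 for the supernumerary subunits. Ndufs1, the largest core subunit, read 4.80, 4.71, 4.92 and 4.93 at 0 h and 4.59, 4.66, 4.63 and 4.58 at 48 h. Its 48 h arrays all lay below the 0 h arrays, but the difference of -0.22 did not pass the test (limma adjusted p = 0.0982, 95% interval -0.42 to -0.02). The normexp and deposited values called 2 of these 7 lower at 48 h. The difference between core and supernumerary subunits was not itself tested. Ndufs6, a supernumerary subunit, was called with the replicate block but not without it (0.34, limma adjusted p = 0.0665 without and 0.041 with the block).

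In complex III, 3 of 8 genes rose at 48 h: Uqcrh, Uqcr11 and Uqcrb. They are 37.5% of the complex, beside 10.5% of all features that rose. With median scaling 1 of the 8 rose, and with quantile normalisation 3 rose and 1 fell. Uqcrh, the hinge protein that sits beside cytochrome c1, read 6.29, 6.97, 6.54 and 6.09 at 0 h and 7.68, 7.58, 7.69 and 7.51 at 48 h. All treated arrays were above all untreated ones, a rise of 1.14 ± 0.17 (SE; 2.21-fold, limma adjusted p = 0.00385). Uqcr11, the smallest subunit, rose by 0.76 (1.70-fold) and Uqcrb, a subunit near the ubiquinone site, by 0.71 (1.63-fold). The core proteins Uqcrc1 and Uqcrc2 differed by -0.05 and -0.24, and Uqcrfs1, the Rieske iron-sulphur protein, by 0.35, with adjusted p of 0.763, 0.109 and 0.0513.

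Complex IV held the members with the largest changes, and they went in opposite directions. Cox6a2, the muscle isoform of subunit 6a, read 5.23, 4.26, 4.68 and 5.02 at 0 h, 2.60, 2.01, 2.04 and 1.59 at 48 h and 4.38, 3.55 and 2.66 at 96 h. The 48 h arrays all lay far below the 0 h arrays, a fall of 6.68-fold (log2 difference -2.74 ± 0.36 (SE), limma adjusted p = 0.00244), and the 96 h arrays lay above all of 48 h and reached into the 0 h range. Cox7a1, the muscle isoform of subunit 7a, read 1.15, 2.07, 1.78 and 0.93 at 0 h, 2.78, 2.74, 2.80 and 2.63 at 48 h and 1.53, 2.00 and 1.59 at 96 h. It rose 2.39-fold at 48 h (1.26 ± 0.23 (SE), limma adjusted p = 0.00777) with no overlap, and its 96 h values overlapped those at 0 h. Both probes were well above background on all 11 arrays, and both calls at 48 h held under each of 23 other processing settings.

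The widely expressed partners of these isoforms were not called at 48 h. Cox6a1 differed by 0.13 (95% interval -0.14 to 0.40), Cox7a2 by 0.35 (limma adjusted p = 0.14) and Cox7a2l by -0.21 (limma adjusted p = 0.238). Of the pair for subunit 4, Cox4i1 differed by 0.27 (adjusted p = 0.101) and Cox4i2, its counterpart in lung and low oxygen, by 0.16 (adjusted p = 0.342). Cox6b1 rose by 0.44, though its groups overlapped (limma adjusted p = 0.0423, 0.0516 with the replicate block). Cox6b2, its testis isoform, differed by 0.54 and was called with the block but not without it (limma adjusted p = 0.0534 without, 0.0183 with it). Cox7b, a small transmembrane subunit, rose by 0.57 (1.49-fold), and Cox8a differed by 0.33 (limma adjusted p = 0.0546).

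Ndufa4, first assigned to complex I and now known as a complex IV subunit, is counted here under complex I by its name, as is Ndufa4l2. It read 4.90, 5.80, 5.46 and 5.05 at 0 h and 5.80, 5.75, 6.01 and 5.82 at 48 h. The groups overlapped, and the difference of 0.54 was not called (limma adjusted p = 0.0617). Its hypoxia-linked paralogue Ndufa4l2 was dim at every time. It read between -3.81 and -3.02 at 0 h and -3.66 to -3.22 on 3 of the 4 arrays at 48 h, with -0.13 on replicate 2 of that time. Its difference of 0.79 has a standard error of 0.67 and was not called.

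**Figure D2:**
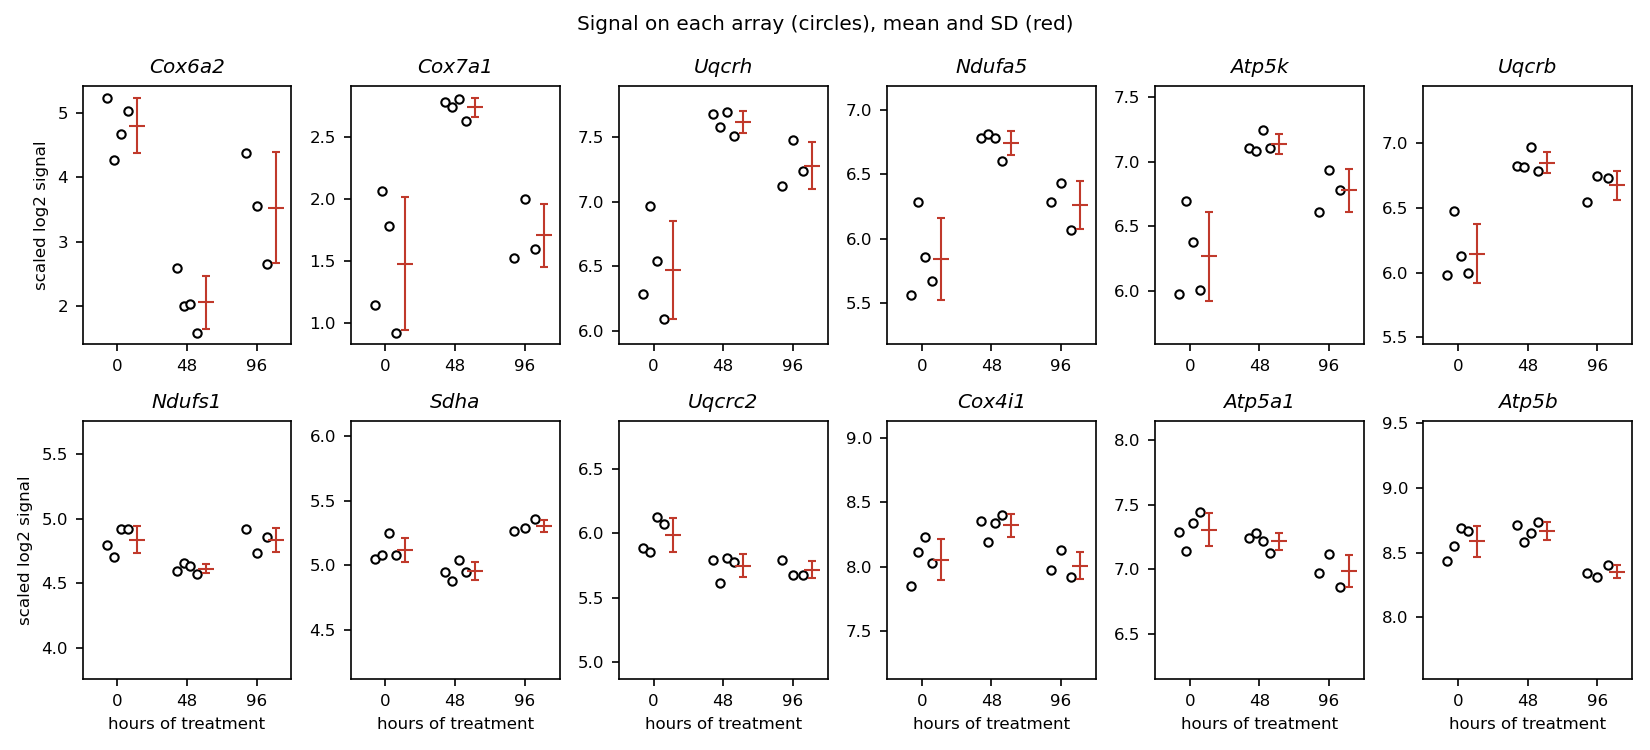
Scaled log2 signal of 12 respiratory chain genes on each array (circles) at 0, 48 and 96 h, with mean and SD in red; each panel spans at least 2 log2 units. The upper row shows 6 called genes, with Cox6a2 falling to 1.59 to 2.60 at 48 h, and the lower row core subunits and Cox4i1, none of which was called at 48 h.

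In complex V, 7 of 17 genes rose at 48 h and none fell, 41.2% of the genes beside 10.5% of all features that rose. With quantile normalisation 3 of the 17 rose, and with median scaling 0 were called. The largest rises were Atp5k (subunit e) and Atp5mpl (6.8PL), small proteins of the membrane sector. Atp5k read 5.97, 6.70, 6.38 and 6.01 at 0 h and 7.11, 7.08, 7.25 and 7.11 at 48 h, without overlap (0.87 ± 0.16 (SE), 1.83-fold, limma adjusted p = 0.00762). Atp5mpl rose by 0.78, and Atp5g1, Atp5j2, Atp5o, Atp5md and Atp5g3 by 0.42 to 0.46. Atp5g1, Atp5g2 and Atp5g3 encode the same mature ring subunit c from different loci. Atp5g1 and Atp5g3 rose, while Atp5g2 differed by 0.07 (limma adjusted p = 0.70); these differences were not tested against each other. The catalytic subunits of the F1 head, Atp5a1 and Atp5b, differed by -0.09 and 0.08, with 95% intervals inside -0.31 and 0.29.

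Complex II, which also serves the citric acid cycle, had 0 of 4 subunits called by limma at 48 h, and 1 with an unadjusted p under 0.05. Sdha, the flavoprotein, read 5.05, 5.08, 5.25 and 5.08 at 0 h and 4.95, 4.88, 5.05 and 4.95 at 48 h. All 48 h arrays lay below the 0 h arrays, though the nearest pair is equal after rounding, and the difference of -0.16 did not pass the test (limma adjusted p = 0.201). The 4 complex II assembly factors also had 0 calls by limma (2 with an unadjusted p under 0.05). Ndufaf7, a methyltransferase that acts in complex I assembly, fell from 3.16 ± 0.15 (SD, n = 4) to 2.69 ± 0.12 (SD, n = 4), a log2 difference of -0.46 (limma adjusted p = 0.0237). The other 7 complex I assembly factors were not called, and their differences ranged from -0.32 to 0.32.

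The untreated arrays differed from each other in the genes that rose. Of the 19 genes that rose, 18 were highest on replicate 2 among the 0 h arrays, 13 were lowest on replicate 1 and 6 on replicate 4. The median SD over members was 0.16 at 0 h and 0.09 at 48 h, against 0.23 and 0.20 over all features. Without replicate 2 of 0 h 35 members were called at 48 h, and without replicate 4 of 0 h or replicate 4 of 48 h 12. Without replicate 1 of 0 h and replicate 4 of 48 h together, a setting chosen after seeing the data, 5 were called.

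**Figure D3:**
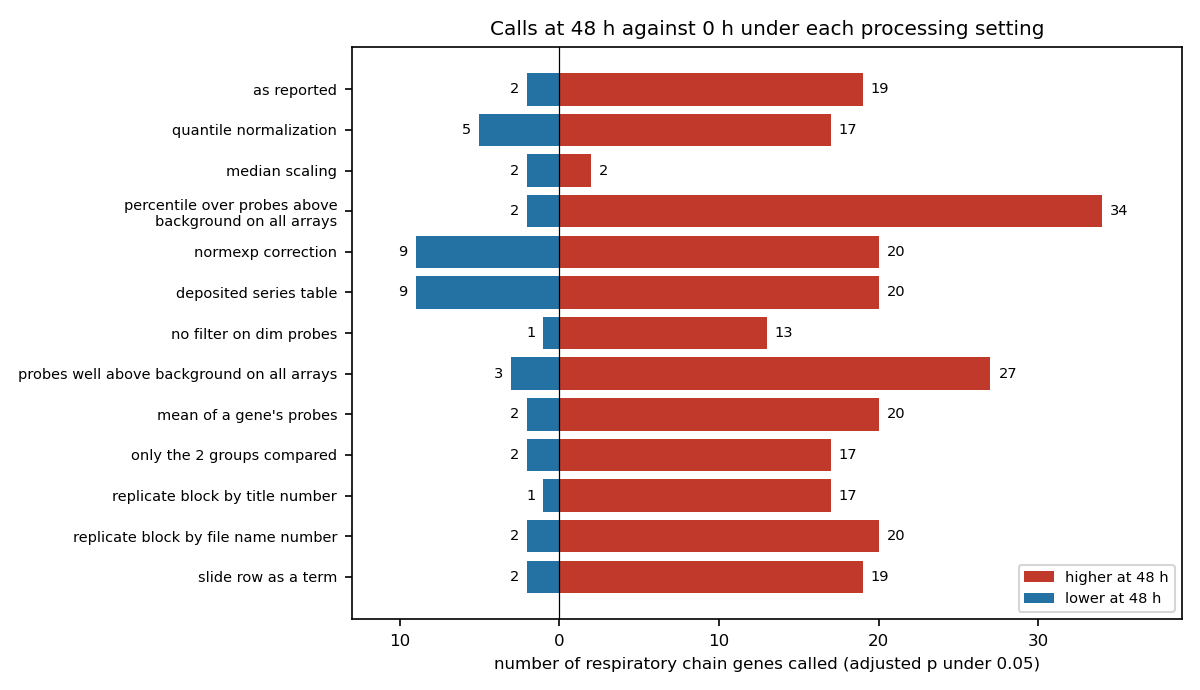
Number of respiratory chain genes called higher (right) or lower (left) at 48 h against 0 h under 13 processing settings. The count of higher calls ranges from 2 with median scaling to 34 with a percentile taken over the probes measured above background throughout. Among all 25079 features these 2 settings called 424 and 3623 higher.

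The number of rises called varied with how the arrays were scaled and was lowest with median scaling. When each array was centred on its median in place of its 75th percentile, the median of all features at 48 h moved from 0.12 to -0.10, and the members called became 2 higher (Cox7a1 and Uqcrh) and 2 lower (Cox6a2 and Ndufaf7). Under that scaling 9.39% of all features were called, 1.69% higher and 7.7% lower. Quantile normalisation called 17 members higher and 5 lower, and the authors' deposited values called 20 higher and 9 lower. Among all 25079 features quantile normalisation called 1849 higher and 2202 lower, and the deposited values 2197 higher and 2691 lower. The shift of all features also varied with brightness. For features with a mean scaled log2 signal from 6 to 8, where 45 members lie, the median of all features was 0.11 and that of members 0.24. For features from 2 to 4, with 14 members, the medians were -0.07 and -0.12.

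Promoter sequences are shown for the 4 genes with the largest rises at 48 h, Cox7a1, Uqcrh, Ndufa5 and Atp5k, and for Sdha, which was not called. They are RefSeq windows on GRCm38.p6 from 250 bases before to 50 after the gene start, written 5′ to 3′ on the gene's strand. The windows are chr7:30183921-30184220 (plus strand, Cox7a1), chr4:116075021-116075320 (minus, Uqcrh), chr6:24527477-24527776 (minus, Ndufa5, the first of its listed starts), chr5:108434350-108434649 (minus, Atp5k) and chr13:74350191-74350490 (minus, Sdha). Capitals mark matches on either strand to the 6 motifs searched: GCGCATGC (part of the NRF1 site), CCGGAAG (GABPA and other ETS factors), AAGATGGC (YY1), TGACGTCA (CREB and ATF), GGGCGG (SP1) and ACGTG (core of the hypoxia response element).
Cox7a1: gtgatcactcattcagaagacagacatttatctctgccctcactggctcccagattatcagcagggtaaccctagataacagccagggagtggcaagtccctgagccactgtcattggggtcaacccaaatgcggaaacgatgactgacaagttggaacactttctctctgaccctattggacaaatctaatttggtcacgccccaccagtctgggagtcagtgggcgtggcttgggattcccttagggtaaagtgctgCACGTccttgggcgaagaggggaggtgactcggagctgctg
Uqcrh: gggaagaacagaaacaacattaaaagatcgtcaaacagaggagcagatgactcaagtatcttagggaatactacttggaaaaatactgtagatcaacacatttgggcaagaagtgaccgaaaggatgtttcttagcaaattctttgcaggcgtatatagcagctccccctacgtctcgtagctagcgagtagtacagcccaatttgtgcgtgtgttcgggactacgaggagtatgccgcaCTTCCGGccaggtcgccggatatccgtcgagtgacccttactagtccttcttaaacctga
Ndufa5: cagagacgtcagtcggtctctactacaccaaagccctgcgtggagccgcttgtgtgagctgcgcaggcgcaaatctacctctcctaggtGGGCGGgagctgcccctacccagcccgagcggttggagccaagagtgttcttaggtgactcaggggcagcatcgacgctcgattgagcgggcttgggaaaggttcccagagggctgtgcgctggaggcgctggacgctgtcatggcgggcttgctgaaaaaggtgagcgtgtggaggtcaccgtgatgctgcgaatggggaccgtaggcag
Atp5k: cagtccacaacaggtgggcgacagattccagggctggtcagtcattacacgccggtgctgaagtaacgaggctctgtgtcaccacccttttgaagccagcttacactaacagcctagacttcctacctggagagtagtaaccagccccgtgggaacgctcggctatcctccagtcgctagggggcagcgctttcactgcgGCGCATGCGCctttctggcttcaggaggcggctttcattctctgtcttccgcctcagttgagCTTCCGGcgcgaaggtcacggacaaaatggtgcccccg
Sdha: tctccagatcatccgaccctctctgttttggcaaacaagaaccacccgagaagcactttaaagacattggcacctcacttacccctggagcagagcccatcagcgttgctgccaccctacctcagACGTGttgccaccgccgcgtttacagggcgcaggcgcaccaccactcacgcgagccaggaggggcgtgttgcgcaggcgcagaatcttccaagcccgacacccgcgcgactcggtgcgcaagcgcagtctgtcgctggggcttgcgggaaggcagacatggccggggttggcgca
The capitals mark CCGGAAG in the Uqcrh and Atp5k windows, GGGCGG in that of Ndufa5 and ACGTG in those of Cox7a1 and Sdha. The Atp5k window also holds GCGCATGC, matched on both strands in runs that overlap each other. RefSeq windows matched 78 of the 94 genes, with 83 windows. GCGCATGC was in 14.5% of these against 2.71% of all 32851 promoter windows. CCGGAAG was in 26.5% against 8.86%, and AAGATGGC in 13.3% against 2.75%. TGACGTCA was in 4.82% against 1.79%, GGGCGG in 47% against 35.7% and ACGTG in 22.9% against 19.6%. In the 18 windows of the genes that rose at 48 h the shares were 11.1%, 33.3%, 11.1%, 0%, 22.2% and 33.3% in the same order of motifs. The matches describe these letters, not binding.

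By 96 h fewer members differed from 0 h: 5 rose (Uqcrh, Uqcrb, Ndufb3, Ndufb7 and Sdhaf4) and 2 fell (Ndufaf4 and Sdhaf1). The 7 calls are 7.45% of the members, against 9.56% of all features (6.18% higher and 3.38% lower), so the share called was near the background. Uqcrh read 7.12, 7.48 and 7.24 at 96 h, above every 0 h array, a difference of 0.81 ± 0.19 (SE; 1.75-fold, limma adjusted p = 0.0295). Uqcrb was 1.44-fold higher (limma adjusted p = 0.0353) and Ndufb3 1.40-fold (limma adjusted p = 0.0282). Of the 19 genes that rose at 48 h, 4 were called at 96 h against 0 h; both comparisons share the 0 h arrays.

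Falls at 96 h were in assembly factors. Sdhaf1, which helps insert the iron-sulphur clusters of complex II, read 3.51, 3.60, 3.51 and 3.74 at 0 h and 3.16, 3.19 and 3.19 at 96 h. The groups did not overlap (-0.41 ± 0.09 (SE), limma adjusted p = 0.0281). Ndufaf4, an early complex I assembly factor, fell from 3.62 ± 0.19 (SD, n = 4) to 3.17 ± 0.14 (SD, n = 3) (limma adjusted p = 0.0485). Sdhaf4, which acts on the flavinated Sdha, went the other way, from 1.99 ± 0.13 (SD, n = 4) to 2.41 ± 0.08 (SD, n = 3) (limma adjusted p = 0.0461, 0.0521 with the replicate block). None of the 15 complex IV genes (1 with an unadjusted p under 0.05), 17 complex V genes (6 with one) and 4 complex II subunits (0 with one) passed limma's test at 96 h against 0 h. With the block Cox6a2 (-1.27, adjusted p = 0.0652 without and 0.0263 with it), Ndufaf6 (0.104 and 0.0421), Atp5k (0.0855 and 0.048) and Atp5mpl (0.0686 and 0.0427) were called, 10 members in all.

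The 96 h calls rested on few arrays. With 1 array left out the count ranged from 0 (without replicate 4 of 0 h or replicate 2 of 96 h) to 16 (without replicate 2 of 0 h). It was 1 without replicate 1 of 0 h or replicate 1 or 3 of 96 h, 2 without replicate 3 of 0 h, 3 without replicate 1 of 48 h, and 4 without replicate 2 or 4 of 48 h. Median scaling called 0 higher and 6 lower, quantile normalisation 6 higher and 2 lower, and the deposited values 16 higher and 3 lower. Among all 25079 features median scaling called 231 higher and 2328 lower. Quantile normalisation called 979 and 1162 of them, and the deposited values 1359 and 1282. Of the 9 mature neutrophil markers 4 were called higher at 96 h against 0 h, 8 with the replicate block and 6 with median scaling. Of all 25079 features 1549, 2148 and 231 were called higher, in the same order of fits. The part of these markers in the members' values was not tested.

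Between 48 h and 96 h 4 members changed, 4.26% against 11.1% of all features (5.17% higher and 5.95% lower). Cox6a2 rose 2.77-fold from its 48 h level (1.47 ± 0.39 (SE), limma adjusted p = 0.0387) and Cox7a1 fell 2.04-fold (limma adjusted p = 0.0291), each moving back towards its 0 h level. Sdha read 5.26, 5.29 and 5.36 at 96 h, above all 48 h and 0 h arrays. It rose by 0.35 from 48 h (limma adjusted p = 0.0355, 0.0539 with the replicate block). Cox8a, a small ubiquitous complex IV subunit, fell by 0.41 on the log2 scale (limma adjusted p = 0.0459, 0.0567 with the block). With the block Cox6b2 (-0.60, adjusted p = 0.0344) and Ndufaf4 (-0.35, adjusted p = 0.0484) were also called lower.

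The median member was 0.15 below the median of all features between 48 h and 96 h. The shift of all features again varied with brightness, and bright features in general were lower at 96 h. For a mean scaled log2 signal from 6 to 8, where 45 members lie, the median of all features was -0.13 and that of members -0.18. From 8 to 10, with 6 members, the medians were -0.39 and -0.25. In complex V all 17 genes had lower means at 96 h, with differences from -0.36 to -0.09, and 0 passed limma's test (5 with an unadjusted p under 0.05). That direction depends on the scaling: the differences ran up to 0.16 with quantile normalisation and up to 0.23 with normexp. Complexes I and III likewise had 0 calls by limma (5 of 38 and 1 of 8 with an unadjusted p under 0.05). Without replicate 2 or 4 of 48 h or replicate 1 of 96 h 0 members were called, with unadjusted p under 0.05 for 21, 16 and 12 members. Without replicate 4 of 0 h, replicate 1 or 3 of 48 h or replicate 2 or 3 of 96 h, 1 was called.

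Genes around the respiratory chain gave a mixed picture at 48 h. Of 44 tested electron carriers and assembly or partner genes outside the name rule, 4 rose and 8 fell (4 and 7 with the replicate block). Over all features 10.5% rose and 8.03% fell, and under median scaling 0 of the 44 rose and 6 fell. Cycs, cytochrome c, went from 7.20 ± 0.07 (SD, n = 4) to 7.55 ± 0.08 (SD, n = 4) and back to 7.14 ± 0.04 (SD, n = 3) at 96 h (limma adjusted p = 0.0177 and 0.0179). Cyc1, the cytochrome c1 of complex III, differed by -0.26 at 48 h (limma adjusted p = 0.0801). Slc25a4, a carrier that exchanges ADP and ATP, rose by 0.56, Coa5 by 0.51 and Cox19 by 0.39, both of them complex IV assembly factors. Sco1, a copper chaperone of complex IV, fell by 0.92 on the log2 scale, Ttc19, a complex III factor, by 0.65 and Foxred1, a complex I factor, by 0.64. By 96 h 1 of the 44 had risen from 0 h (Acad9, a complex I assembly factor, 0.52) and 4 had fallen (5 with the replicate block). The falls were led by Ttc19 (-0.97), Timmdc1 (-0.88, complex I assembly) and Tmem70 (-0.59, complex V assembly). Over all features 6.18% rose and 3.38% fell at 96 h against 0 h, and under median scaling 0 of the 44 rose and 10 fell.

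Of 19 tested regulators of mitochondrial biogenesis and mitochondrial DNA upkeep, 0 rose and 5 fell at 48 h. They were led by Gabpb1, a subunit of the GABP factor that binds ETS sites, at -0.64 (limma adjusted p = 0.0071). Tfb1m, a mitochondrial rRNA methyltransferase, followed at -0.60 and Polg2, the accessory subunit of the mitochondrial DNA polymerase, at -0.52. The share that fell over all features was 8.03%, and 10.5% rose. All 3 were also called lower under median scaling (adjusted p = 0.00859, 0.024 and 0.0382). After 96 h 4 of the 19 were lower than at 0 h, among them Gabpb1 (-0.55), Mterf3 (-0.47) and Polg2 (-0.47), and 3 were lower with the replicate block. Over all features 6.18% rose and 3.38% fell at 96 h against 0 h, and under median scaling 0 of the 19 rose and 4 fell. Between the later times Polg, the polymerase itself, rose by 0.52 (limma adjusted p = 0.0229).

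Citric acid cycle and pyruvate dehydrogenase genes were called in both directions, 2 of 25 higher and 3 lower at 48 h (3 and 4 with the replicate block), a share near the 18.6% of all features called. Pdha1, Dld and Dlat, subunits of the pyruvate dehydrogenase complex, fell by 0.55, 0.50 and 0.47 on the log2 scale. Pdk1, a kinase that inhibits the complex, rose by 0.58, and Pdp2, the opposing phosphatase, by 0.60. Pdha1 was called lower at 96 h against 0 h (-0.40, limma adjusted p = 0.0467), and with the replicate block 4 of the 25 were also called higher. Over all features 3.38% fell in that comparison, and with the block 2148 of 25079 rose. Between the later times Pdk1 was called lower (-0.38, limma adjusted p = 0.0359, 0.0688 with the block).

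Of 77 mitochondrial ribosomal protein genes 11 rose and 8 fell at 48 h (9 fell with the replicate block), with the largest rises in Mrps21 (0.78), Mrpl41 (0.68) and Mrps25 (0.58) and the largest falls in Mrpl24 (-0.63), Mrps6 (-0.54) and Mrps22 (-0.53). These shares were near those over all features, of which 10.5% rose and 8.03% fell, and under median scaling 0 rose and 5 fell. Compared with 0 h, 3 were higher at 96 h (Mrps21, Mrpl41 and Mrpl51) and 6 lower, led by Mrps6 (-0.67), Mrps22 (-0.59) and Mrpl50 (-0.58), with 4 higher and 8 lower with the replicate block. Over all features 6.18% rose and 3.38% fell at 96 h against 0 h, and under median scaling 0 of the 77 rose and 12 fell. Between the later times 1 of 77, Mrps10, was called (-0.43, limma adjusted p = 0.0416), against 11.1% of all features.

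Hypoxia and mitophagy genes acting on mitochondria rose at 48 h in 6 of 11 cases and 1 fell, with a median of 0.47 beside 0.12 for all features. Of all features 10.5% rose and 8.03% fell. The list was chosen with earlier results of these data known, so its counts and median are only a description. It holds the members Cox4i2 and Ndufa4l2, and Pdk1, which was also counted with the citric acid cycle genes. Egln3, an oxygen-sensing prolyl hydroxylase, rose by 1.36 and Bnip3, a mitophagy receptor, by 1.34 (limma adjusted p = 0.00126 and 0.00122). Mgarp, a mitochondrial protein, averaged 0.48 at 48 h and -3.70 at 0 h, where its probe was well above background on 2 of 4 arrays (limma adjusted p = 0.00671). Hif1a itself fell by 0.53 on the log2 scale (limma adjusted p = 0.0191). Under median scaling 3 of the 11 rose and 1 fell. The differences at 96 h against 0 h ran from -0.55 (Mgarp) to 0.34 (Egln3) and did not pass the test. Between 48 h and 96 h 5 of the 11 fell (4 with the replicate block), led by Mgarp, Bnip3 (-1.34) and Egln3 (-1.01). Over all features 5.17% rose and 5.95% fell between these times, and under median scaling 3 of the 11 fell.

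Probes of 1 gene did not always agree. Of 23 members with more than 1 kept probe, 5 had all probes called in 1 direction at 48 h, 4 had some but not all called, and 0 had calls in opposite directions. The differences had the same sign on all probes in 20 of the 23. Ndufv3 was called on the probe used here (0.41) while its dimmer probe differed by -0.05. Dimmer probes of Ndufb11 and Cox7a2l, which were not called on the probes used, were called lower (-0.52 and -0.35).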

How the data were processed

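The samples were hybridised to Agilent 1-colour arrays, and the deposited scanner files hold spot intensity values, background-corrected by Agilent Feature Extraction 11.0.1.1 per the file headers. The deposited value table holds log2 values. It matched normexp background correction (offset 50) with quantile normalisation of the same arrays, with column medians of 6.17 to 6.19, and limma is named in the submitters' processing notes. Here log2 of the processed signal minus each array's 75th percentile was used. Outlier spots were dropped, spots of a probe averaged, and probes kept if well above background on at least 3 arrays (34269 of 55681). The brightest kept probe stood for a gene. Groups were compared with limma 3.58.1 (lmFit and eBayes, R 4.3.3) on all 11 arrays together (8 residual degrees of freedom, also used for intervals), and called at a Benjamini-Hochberg adjusted p under 0.05. The fitting script was tested on simulated data. Figures and motif counts used Python 3.

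Probes were named through RefSeq accessions. Of 119 RefSeq genes matching the name rule 19 are pseudogenes, with 0 on the array, and 3 of 100 coding genes had no probe. The number of arrays limits the precision. The series names 4 cell lines without tying arrays to them, so p-values measure only the spread between these samples. Samples with the same file name number, which is also the slide column, correlated at 0.115 to 0.356. Other pairs reached 0.167, and pairs by title number at 96 h went down to -0.042. Blocked values are given where a call changes.

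Members described by array are Ndufs1 and Sdha, the isoform genes, and, in each comparison and complex, the 3 largest rises and falls among called genes with any call opposed to its complex. Of the other gene lists, Cyc1, Cycs and at most 3 called genes a list and direction are named. The members and gene lists were chosen with earlier results of these data known. Alternatives concern scaling, background, filters, the deposited table, probe choice, the samples fitted, the replicate block, slide row and leaving out arrays.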

Additional observations from a re-analysis of the deposited data

Results flagged for a closer look

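Of 202 groups of 4 arrays examined (each member and each complex median at 0 h and 48 h), 13 had an array standing apart from the other 3 by Dixon's criterion, and chance gives about 1 in 20. All are scaled log2 signals. Replicate 2 of 48 h stood apart for 6 genes. It was lower than the rest for Atp5c1 (7.13, others 7.31 to 7.34), Atp5g3 (7.52, others 7.79 to 7.83), Sdhaf2 (2.02, others 2.09), Uqcrc2 (5.61, others 5.78 to 5.81) and Uqcrfs1 (5.8, others 5.98 to 6.00). For Ndufa4l2 it was higher, at -0.13 against -3.66 to -3.22, the widest gap of the 13 by far, on a probe well above background on 3 of the 4 arrays of that time.

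At 48 h replicate 4 was low for Ndufa5 (6.6, others 6.78 to 6.81) and high for Ndufaf5 (0.81, others 0.27 to 0.32). Replicate 3 was high for Ndufs6 (7.91, others 7.74 to 7.76) and replicate 1 low for Sdhc (4.34, others 4.52 to 4.54). At 0 h replicate 2 was high for Ndufaf3 (3.26, others 2.89 to 2.96) and low for Ndufaf4 (3.34, others 3.70 to 3.74), and replicate 3 was high for Sdha (5.25, others 5.05 to 5.08).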

How the results depend on the processing

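The calls of Cox6a2, Cox7a1 and Uqcrh at 48 h held under each of the 23 planned settings. With 1 array left out, called members ranged from 12 to 35 (48 h against 0 h), 0 to 16 (96 h against 0 h) and 0 to 5 (96 h against 48 h). At 48 h against 0 h 4 were called with median scaling, 36 with the percentile over well-measured probes and 5 without 0 h array 1 and 48 h array 4 (chosen after seeing the data). At 96 h against 0 h the counts were 19 with normexp or the deposited table, 2 with the replicate block by title number, 10 with the replicate block by file name number, 4 with slide row or subunits alone, and 0 without the dim-probe filter, with only the 2 groups or without those 2 arrays (unadjusted p under 0.05: 18, 13 and 15 members). At 96 h against 48 h they were 12 with normexp or the deposited table, 8 with the percentile over well-measured probes, 1 with median scaling, only the 2 groups or slide row, and 0 without the filter or those 2 arrays (unadjusted: 17 and 17). The cause was not tested.

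Medians minus that of all features also moved. At 48 h against 0 h quantile, and then normexp or deposited, values gave 0.012 and 0.009 for complex I assembly factors (sign turned) and -0.089 and -0.073 for complex II assembly factors. Without the filter complex II subunits gave -0.206 and their assembly factors -0.364. At 96 h against 0 h quantile values gave 0.097 for the members and 0.059 for complex IV (signs turned), -0.090 and -0.077 for assembly factors of complexes I and II, 0.115 for complex II and 0.128 for complex V. Normexp or deposited values gave 0.105 and 0.128 (sign turned), -0.031 and -0.115, 0.263 for complex III and 0.148 for complex V, and averaging probes gave -0.068 for complex II (sign turned). At 96 h against 48 h quantile values gave -0.058 for complex IV and -0.066 for complex V. Normexp or deposited values gave 0.001 for the members and 0.083 for complex I subunits (signs turned), 0.136 and 0.012 for complex II subunits and assembly factors, -0.007 for complex IV and -0.014 for complex V. Among named genes Mrpl51 at 96 h against 0 h turned sign with median scaling (-0.007), and Cox6a1 at 96 h against 48 h with normexp or the deposited table (0.400). The cause was not tested.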
